A study of Mus musculus with 20 samples.

Results

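The insulin-like growth factor (IGF) system was followed through 10 genes that code for its ligands, receptors and binding proteins in lumbar dorsal root ganglia (DRG), the ganglia that hold the cell bodies of sensory neurons. The genes Igf1, Igf2, Igf1r, Insr, Igfbp2, Igfbp3, Igfbp4, Igfbp5, Igfbp6 and Igfbp7 were taken by symbol from an exonic count table of 78258 identifiers. The choice was made with earlier results of these data known. All 10 were among the 28564 genes that passed the filter on low counts and were tested. The mice were males. Ahr cKO animals (Ahr fl/fl Thy1CRE-ERT2/EYFP) were designed to lose the aryl hydrocarbon receptor gene Ahr after tamoxifen in cells where the Thy1 promoter drives the inducible Cre, which are mainly neurons, and controls were Ahr f/f or Ahr f/+, with no Cre named. Every mouse of both genotypes, controls included, received tamoxifen intraperitoneally at 100 mg/kg once a day for 5 days from 17 weeks of age, and a sciatic nerve was transected 4 weeks later. Ganglia of lumbar levels 4 to 6 were collected 1 day after the lesion, with 1 ipsilateral (injured) and 1 contralateral (uninjured) library per mouse. That gave 4 groups of 5 libraries: control contralateral, control ipsilateral, cKO contralateral and cKO ipsilateral. No ganglia from unoperated mice were used here, so the contralateral side of the same animals was the reference.

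IGF1, IGF2 and insulin are secreted ligands that act through the receptor tyrosine kinases encoded by Igf1r and Insr, which signal through insulin receptor substrates to PI3 kinase, AKT and mTOR. The IGF binding proteins hold the ligands outside the cell, where they can block access to the receptor, prolong the life of the ligand or carry it to the extracellular matrix, and proteases such as pappalysin release the ligand again. In peripheral nerve and DRG, IGFs are known as survival and outgrowth factors for sensory neurons and Schwann cells, and IGF1 and IGF2 are also made by fibroblasts and the coverings of nerve and brain.

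The study asks what loss of Ahr does to the response of DRG neurons to nerve injury, and the promoters of 2 of the 3 members called after injury are shown for that reason. The protein encoded by Ahr binds DNA at a site with the core letters GCGTG. The core was searched on both strands of the 250 bases before each RefSeq transcription start (build GRCm38.p6), next to an AP-1 motif (TGANTCA, the site of the injury-induced factor JUN and its partners) and a CRE motif (TGACGTCA, bound by ATF factors). None of these motifs contains another. Of 32851 such windows in the genome, 28.16% held the AhR core, 6.749% the AP-1 motif and 1.546% the CRE motif. Windows were found for 9 of the 10 members, 13 windows in all, of which 5 held the AhR core, 2 the AP-1 motif and 0 the CRE motif. The window of Igfbp3, the member with the largest response to injury, lies at chr11:7213924-7214173 on the minus strand, and that of Igfbp4, called in control mice, at chr11:99040994-99041243 on the plus strand. Both are written 5′ to 3′ in the direction of the gene, and capitals mark matches to the AhR core.
Igfbp3: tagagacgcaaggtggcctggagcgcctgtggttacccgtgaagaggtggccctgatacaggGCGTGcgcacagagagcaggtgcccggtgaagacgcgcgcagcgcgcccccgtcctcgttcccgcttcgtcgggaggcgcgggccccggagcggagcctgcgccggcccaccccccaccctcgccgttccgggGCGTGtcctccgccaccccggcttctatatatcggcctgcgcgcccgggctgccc
Igfbp4: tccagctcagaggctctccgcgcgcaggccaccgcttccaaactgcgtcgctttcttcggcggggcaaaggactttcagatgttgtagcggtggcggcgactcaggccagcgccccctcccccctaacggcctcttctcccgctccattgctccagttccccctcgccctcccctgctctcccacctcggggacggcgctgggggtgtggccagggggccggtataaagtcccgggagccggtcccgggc
The Igfbp3 window held 2 matches to the AhR core, 188 and 55 bases before the start, and the Igfbp4 window held none of the 3 motifs. The window of Igf1, called in cKO mice, overlaps an annotated untranslated exon and is given without its letters. It held 1 match to the AhR core, 196 bases before the start, and 1 to the AP-1 motif, 37 bases before it. A match of letters is a description of the sequence and says nothing of binding.

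Libraries held 76.2 to 118.5 M counts, and values are given as CPM (counts scaled to the library size after TMM normalisation), as mean ± SD over 5 mice. The targeted gene Ahr stood at 24.2 ± 2.10 CPM in the control and 20.4 ± 0.536 CPM in the cKO contralateral ganglia, a log2 difference of -0.25 ± 0.07 (SE) with an adjusted p of 0.103 (edgeR), although the ranges did not overlap. DESeq2 called this difference (adjusted p = 0.0220). The ipsilateral difference was -0.11 ± 0.07 (adjusted p = 1.00). Counts over the whole gene in whole ganglia do not measure the deleted part of Ahr in Thy1-expressing cells, so this is a weak check of the genotype labels. The axotomy markers Atf3, Sprr1a, Sox11, Gal, Jun and Gap43 rose on the ipsilateral side in both genotypes, 6 of 6 called with a median log2 fold change of 2.31 in control and 2.42 in cKO mice. All 15 sensory neuron markers were detected in every group, with a summed level of 13561 to 16377 CPM per library. The contralateral libraries of cKO mice H64, H95 and H100 stood apart: they had the highest summed levels of 10 fibroblast markers, 1812 to 2403 CPM, against 848 to 1646 CPM in the other 17 libraries. Meningeal markers (7 genes) were also highest there, at 92.3 to 185 CPM.

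Per kilobase of merged exon, 4 of the 6 binding protein transcripts had the highest levels among the 10 in control contralateral ganglia. There Igfbp6 had 55.3 ± 18.8, Igfbp7 47.0 ± 7.87, Igfbp5 33.0 ± 11.6 and Igfbp4 28.6 ± 2.50 CPM per kilobase, and the ranges of neighbours in this order overlapped. The levels then dropped to Igf2 at 10.8 ± 6.17, with no overlap with Igfbp4, followed by Igfbp2 at 6.65 ± 2.21 and Igfbp3 at 4.58 ± 0.738 CPM per kilobase. The receptors were lower, Igf1r at 3.81 ± 0.257 and Insr at 2.34 ± 0.169, and the ligand Igf1 was lowest at 1.17 ± 0.396 CPM per kilobase. Igf1r, Insr and Igf1 were separated from each other without overlap, while Igfbp3 and Igf1r overlapped. On the ipsilateral side Igfbp3 moved from place 7 to place 5 of the 10 in both genotypes, at 33.4 ± 2.25 CPM per kilobase in control and 32.7 ± 4.62 in cKO mice.

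**Figure D1:**
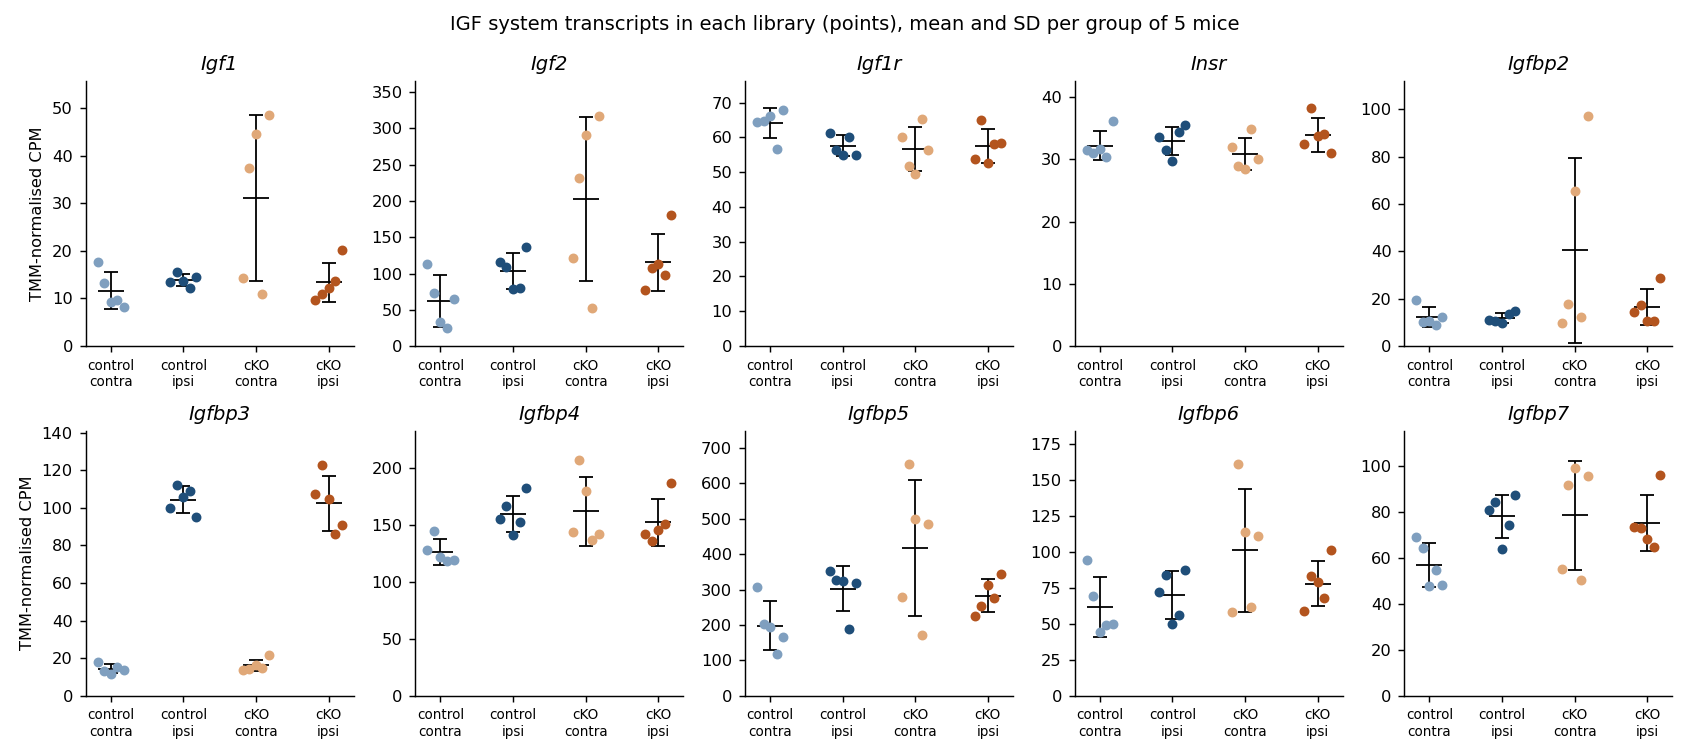
TMM-normalised CPM of the 10 genes (vertical axes, starting at 0) in each library (points) of the 4 groups of 5 mice, with the mean (bar) and SD (whiskers). Igfbp3 is the only gene whose ipsilateral libraries, 86.3 to 123 CPM, all lie above all contralateral ones, and for Igf1, Igf2 and Igfbp2 the cKO contralateral points are widely spread.

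Igfbp3 had the largest response to injury among the 10 and was called in both genotypes. In control mice it had 17.8, 13.1, 11.8, 15.3 and 13.7 CPM on the contralateral side of H62, H63, H65, H96 and H97, and 100.0, 112, 106, 109 and 94.96 CPM on their ipsilateral side. In cKO mice it had 13.8, 14.3, 16.2, 14.9 and 21.5 CPM contralaterally in H61, H64, H95, H99 and H100, and 107, 123, 105, 86.3 and 90.8 CPM ipsilaterally. Every ipsilateral library was above every contralateral one, with no overlap in either genotype. IGFBP3 is the main carrier of IGFs in serum, where it forms a complex with the acid-labile subunit, and in tissue it limits access of the ligand to its receptor. The rise was 7.29-fold in control mice (log2 fold change 2.87 ± 0.13 SE, adjusted p = 1.04e-11, edgeR) and 6.35-fold in cKO mice (2.67 ± 0.13, adjusted p = 2.23e-11). That fit does not pair the 2 libraries of a mouse. With the mouse as a replicate block in edgeR the adjusted p was 6.98e-07 in control and 1.02e-06 in cKO mice. Within mice the ratio of the sides ran from 5.62 to 8.96 in controls and from 4.21 to 8.57 in cKO mice, higher on the injured side in 10 of 10. The genotypes did not differ detectably in this response: the interaction was -0.20 ± 0.18 on the log2 scale (adjusted p = 0.719). Without the 3 libraries high in fibroblast markers, which left 2 cKO contralateral libraries, the log2 fold change in cKO mice was 2.84 (adjusted p = 1.22e-08). Across the 20 libraries the log2 CPM of Igfbp3 followed the axotomy marker score (Pearson r 0.99) and not the fibroblast score (0.01), given as descriptions of libraries that share side and mouse. The values were 0.67 with the satellite glia, 0.50 with the perineurial and -0.62 with the sensory neuron score. Of the 15 sensory neuron markers 5 were called lower after injury in control and 4 in cKO mice, and 0 higher. In each genotype 2 of 4 satellite glia and 1 of 4 perineurial markers were called higher on the injured side. The log2 fold change was above 0 for 4 of 4 in both lists in control mice, and for 2 of 4 in both lists in cKO mice. Of 9 mural cell markers 2 were called higher in control and 1 in cKO mice, and of 9 endothelial markers 3 in control mice. Among all tested genes 13.8% were called higher and 16% lower in control mice, and 16.2% and 15.1% in cKO mice. The mural cell sums were 258 to 394 CPM contralaterally and 308 to 374 CPM ipsilaterally. The sums went from 556 to 713 CPM contralaterally to 709 to 778 CPM ipsilaterally for satellite glia, and from 108 to 176 CPM to 173 to 254 CPM for perineurial cells. The part of these cell types in the Igfbp3 result was not tested. In these bulk samples, a change in the number of cells of a type and a change in RNA per cell cannot be told apart.

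The other 9 members moved little with injury by comparison. With 2 of 10 called in control mice, Igfbp3 and Igfbp4, the members were set beside a background of 29.9% of all tested genes called. In cKO mice 2 of 10 were called, Igfbp3 and Igf1, beside a background of 31.3%. Only Igfbp3 had ranges that did not overlap between the sides, 1 of 10 in each genotype, where 23.6% of all tested genes in control and 20.2% in cKO mice did so. The median log2 fold change of the 10 was 0.30 in control and -0.23 in cKO mice, against -0.0047 and -0.030 over all tested genes. The signs were split by genotype, with 8 of 10 higher on the injured side in controls and 7 of 10 lower in cKO mice, but the members share libraries and most of them were not called. Without the 3 libraries high in fibroblast markers 9 of 10, all but Igf1r, had a log2 fold change above 0 in cKO mice.

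**Figure D2:**
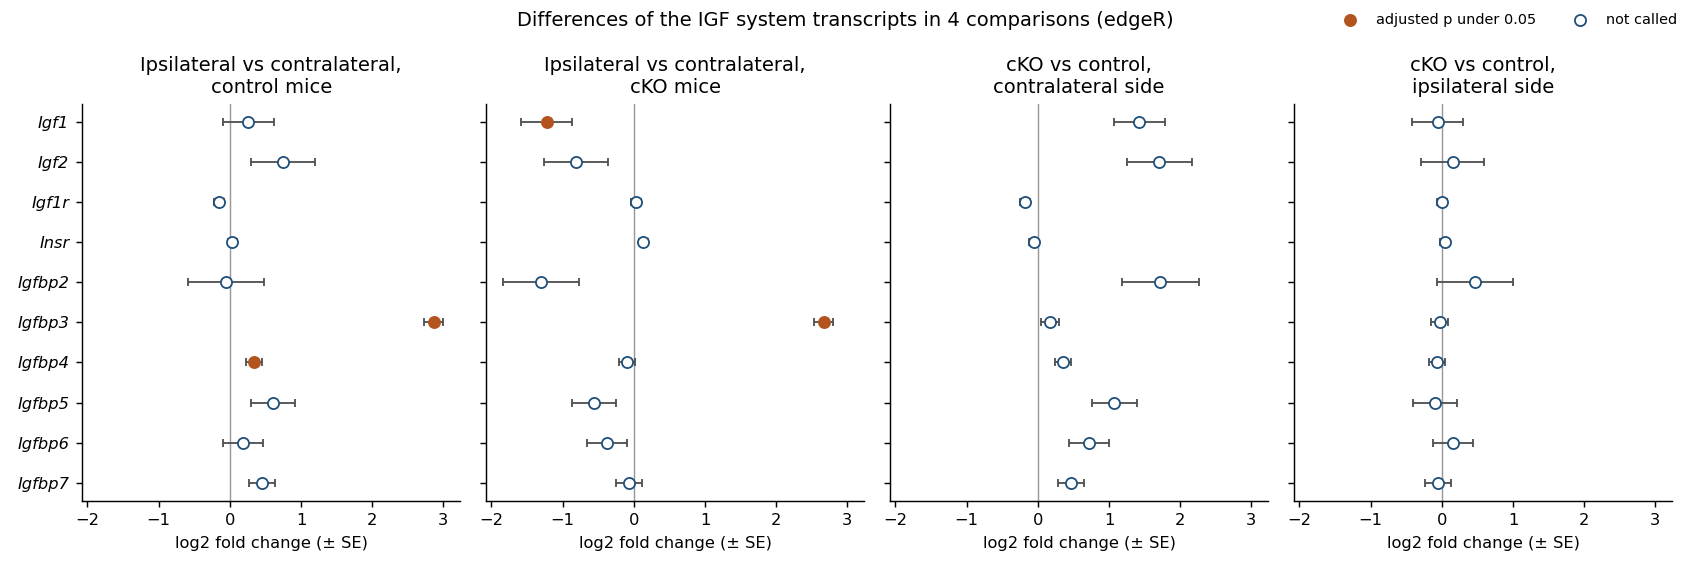
Log2 fold change (horizontal axis, ± SE) of the 10 genes in 4 comparisons from the edgeR fit of all 20 libraries; filled points have an adjusted p under 0.05. The Igfbp3 points at 2.87 and 2.67 stand apart in the 2 injury panels, and on the contralateral side 8 of 10 genes lie to the right of 0 with none called.

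Of the ligands, Igf1, which acts on sensory neurons and glia through the receptor encoded by Igf1r, had 17.7, 13.3, 9.30, 9.58 and 8.18 CPM in the control contralateral libraries (H62, H63, H65, H96, H97) and 13.5, 15.7, 13.6, 12.2 and 14.5 CPM in the ipsilateral ones. In cKO mice (H61, H64, H95, H99, H100) it had 14.2, 37.4, 44.6, 11.0 and 48.5 CPM contralaterally and 9.75, 10.9, 12.3, 13.7 and 20.2 CPM ipsilaterally. The contralateral libraries of H64, H95 and H100 were above all 17 others, while those of H61 and H99 lay within the range of the controls. Igf1 fell on the injured side of cKO mice by 1.22 ± 0.36 on the log2 scale (adjusted p = 0.0141, edgeR), lower in 4 of 5 mice. In control mice the change was 0.26 ± 0.36 (adjusted p = 0.649), higher in 4 of 5. The cKO call held in 16 of 21 alternatives, among them the mouse as a replicate block (-1.05, adjusted p = 0.0371). It was lost in a fit of the cKO libraries alone (-1.21, adjusted p = 0.0834), without H64 (-1.08, adjusted p = 0.0736) or without H95 (-1.03, adjusted p = 0.0781). Without the 3 contralateral libraries high in fibroblast markers the value turned to 0.09 (adjusted p = 0.868). With the fibroblast score as a covariate it was -0.43 (adjusted p = 0.102). Markers of some other cell types had lower values on the injured side of cKO mice as well. Of 7 tendon and bone markers 5 were called lower and 0 higher (median -1.33, sums of 60.2 to 258 CPM contralaterally and 46.9 to 88.5 CPM ipsilaterally). Among fibroblast markers 9 of 10 were lower with 1 called (median -0.63). Of all tested genes 15.1% were called lower. All 6 skeletal muscle markers were lower (median -3.24, sums of 5.50 to 1691 CPM and 2.91 to 118 CPM). The contralateral muscle sum of 1691 CPM was that of H100 alone, with at most 63.1 CPM in the other cKO mice. All 7 meningeal (median -0.83, 32.0 to 185 CPM and 35.3 to 89.95 CPM) and all 5 erythroid markers (median -0.41, 272 to 833 CPM and 252 to 616 CPM) were lower too. The remaining lists differed in direction. Above 0 were 8 of 12 macrophage, 6 of 9 mural cell, 6 of 10 Schwann cell and 5 of 9 endothelial markers. So were 2 of 4 satellite glia, 2 of 4 perineurial, 2 of 7 neutrophil, 1 of 6 lymphocyte and 3 of 15 sensory neuron markers. The part of these cell types in the Igf1 result was not tested. The difference of the 2 responses was -1.48 ± 0.50 (interaction, adjusted p = 0.485).

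Igf2, a growth factor of embryonic tissue that stays high in the leptomeninges of the adult, had 114, 73.3, 32.9, 25.4 and 65.1 CPM in the control contralateral libraries and 115, 109, 78.8, 79.8 and 137 CPM in the ipsilateral ones, in the same order of mice. In cKO mice it had 121, 232, 291, 52.0 and 318 CPM contralaterally and 77.1, 108, 114, 98.4 and 181 CPM ipsilaterally. The same contralateral libraries, H64, H95 and H100, were the highest 3 of the 20, and the groups overlapped. The injury change was 0.75 ± 0.45 in control mice (adjusted p = 0.246), higher in 5 of 5, and -0.81 ± 0.45 in cKO mice (adjusted p = 0.191), lower in 4 of 5. The cKO value turned to 0.17 when adjusted for the fibroblast score and to 0.42 without the 3 libraries high in fibroblast markers. Those 3 were also the highest in Igf2, so leaving them out was bound to raise the value. The control value was 0.19 (adjusted p = 0.590) when adjusted for the fibroblast score. Igf2 shares 3596 exon bases, 62.8% of its own, with Gm49394 on the same strand, whose counts came to 94.8% of those of Igf2 and followed them across libraries with r 0.99997, so the 2 genes cannot be told apart in this table. H19, the imprinted RNA gene beside Igf2, had 38.8 ± 24.1, 59.2 ± 14.9, 104 ± 53.8 and 57.4 ± 17.9 CPM in control contralateral, control ipsilateral, cKO contralateral and cKO ipsilateral libraries, and edgeR called it in no comparison, while DESeq2 called it higher in cKO contralaterally.

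The receptors varied little within groups. Igf1r, the receptor of both IGFs, ranged from 56.7 to 68.0 CPM in control contralateral, 54.9 to 61.3 in control ipsilateral, 49.5 to 65.2 in cKO contralateral and 52.7 to 65.1 CPM in cKO ipsilateral libraries, overlapping throughout. Its injury change was -0.15 ± 0.07 in control (adjusted p = 0.110) and 0.03 ± 0.07 in cKO mice (adjusted p = 0.822). Insr, the insulin receptor, which also binds IGF2 in one splice form, ranged from 30.4 to 36.2, 29.8 to 35.5, 28.4 to 34.9 and 31.0 to 38.2 CPM in the same order of groups. Its injury change was 0.03 ± 0.06 in control (adjusted p = 0.756) and 0.14 ± 0.06 in cKO mice (adjusted p = 0.122). The coefficient of variation within a group was 5.19% to 11.2% for Igf1r and 6.97% to 8.53% for Insr, against 9.13% to 56.0% for Igf1 and 18.1% to 96.5% for Igfbp2.

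Igfbp4, an inhibitory binding protein that pappalysin cleaves, rose in control mice. It had 128, 145, 121, 118 and 119 CPM contralaterally and 155, 166, 141, 153 and 182 CPM ipsilaterally in H62, H63, H65, H96 and H97. The injured side was higher in 5 of 5 mice, by 1.26-fold (0.34 ± 0.11, adjusted p = 0.0299, edgeR), although the ranges of the groups overlapped. The call held in 14 of 21 alternatives and was lost in those that follow. With the 2 libraries of a mouse paired as a replicate block the change was 0.34 (adjusted p = 0.0729). It was 0.35, 0.34 and 0.27 without H62, H96 and H97 (adjusted p = 0.0642, 0.0790 and 0.142). With no filter it was 0.35 (adjusted p = 0.0635), and with limma on FPKM (pseudocount 1) 0.29 (adjusted p = 0.0503). Adjusted for the fibroblast score, the change was 0.20 (adjusted p = 0.0797). In control mice 10 of 10 fibroblast and 9 of 9 endothelial markers had a log2 fold change above 0, and 3 of the endothelial ones were called. Of 12 macrophage markers 12 were above 0 and 1 was called (median 0.46, sums of 131 to 241 CPM contralaterally and 150.1 to 281 CPM ipsilaterally). The summed levels were 848 to 1424 CPM contralaterally and 984 to 1585 CPM ipsilaterally for fibroblasts, and 131 to 173 CPM and 151 to 207 CPM for endothelium. Also above 0 were 4 of 4 satellite glia (2 called), 8 of 9 mural cell (2 called) and 4 of 4 perineurial markers (1 called). Sensory neuron (5 of 15 above 0), lymphocyte (1 of 6) and tendon and bone markers (3 of 7) were mostly lower. Of all tested genes 13.8% were called higher. The part of these cell types in the Igfbp4 result was not tested. In cKO mice Igfbp4 had 143, 207, 179.5, 137 and 142 CPM contralaterally and 142, 136, 145, 150.4 and 187 CPM ipsilaterally, a difference of -0.09 ± 0.11 (adjusted p = 0.601), which turned to 0.09 when adjusted for the fibroblast score and to 0.12 without the 3 libraries high in fibroblast markers. The responses were not shown to differ (interaction -0.43 ± 0.16, adjusted p = 0.485).

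Igfbp7, a related protein that binds IGFs weakly and sits in the vessel wall and matrix, had 69.1, 64.3, 47.9, 54.7 and 48.3 CPM contralaterally and 80.8, 84.5, 63.8, 74.4 and 87.3 CPM ipsilaterally in control mice. The injured side was higher in 5 of 5 mice, by 0.46 ± 0.18 with an adjusted p of 0.0698, which became 0.0353 with the mouse as a replicate block, 0.0181 in a fit of the 10 control libraries alone and 0.0360 in DESeq2. Adjusted for the fibroblast score, the change was 0.20 (adjusted p = 0.130). In control mice 4 of 4 perineurial markers were above 0 and 1 was called, with sums of 108 to 156 CPM contralaterally and 173 to 227 CPM ipsilaterally. Of 12 macrophage markers 12 were above 0 and 1 was called. Their part in the Igfbp7 result was not tested. In cKO mice Igfbp7 ranged from 50.4 to 99.3 CPM contralaterally and from 64.9 to 95.97 CPM ipsilaterally (-0.06 ± 0.18, adjusted p = 0.836). This value turned to 0.29 (adjusted p = 0.0256) when adjusted for the fibroblast score, and to 0.51 (adjusted p = 0.0438) without the 3 libraries high in fibroblast markers. Igfbp7 shares 85 exon bases, 7.03% of its own, with Polr2b on the opposite strand, and the strand setting of the counting was not given in the sources used here. Igfbp5, which binds the extracellular matrix, ranged from 119 to 308 CPM in control contralateral and 189.8 to 352 CPM in control ipsilateral libraries, higher on the injured side in 5 of 5 mice (0.61 ± 0.31, adjusted p = 0.159). In cKO mice it ranged from 170.2 to 654 CPM contralaterally and 225 to 344 CPM ipsilaterally, lower on the injured side in 4 of 5 mice (-0.56 ± 0.31, adjusted p = 0.185). Under the same alternatives this value turned to 0.11 and 0.34. The control value of Igfbp5 was 0.23 (adjusted p = 0.330) when adjusted for the fibroblast score.

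Igfbp6, which prefers IGF2 over IGF1, ranged from 44.5 to 94.6 CPM in control contralateral, 49.6 to 87.6 in control ipsilateral, 58.1 to 162 in cKO contralateral and 59.0 to 101 CPM in cKO ipsilateral libraries. Its injury change was 0.18 ± 0.28 in control (adjusted p = 0.692) and -0.38 ± 0.28 in cKO mice (adjusted p = 0.348), where it turned to 0.19 when adjusted for the fibroblast score and to 0.39 without the 3 libraries high in fibroblast markers. Igfbp2, a binding protein of fetal tissue, choroid plexus and meninges, had 9.66, 17.6, 65.4, 12.3 and 96.998 CPM in the cKO contralateral libraries of H61, H64, H95, H99 and H100. Those of H95 and H100 were above all other libraries, which had 9.04 to 28.9 CPM. The injury change of Igfbp2 was -0.05 ± 0.53 in control (adjusted p = 0.962) and -1.30 ± 0.53 in cKO mice (adjusted p = 0.0748). In cKO mice the adjusted p was 0.0386 with DESeq2, the change was -0.81 (adjusted p = 0.236) with the mouse as a replicate block, and it was 0.58 (adjusted p = 0.315) without the 3 contralateral libraries high in fibroblast markers.

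On the contralateral side 8 of 10 members had a higher mean in cKO than in control mice, and none was called. The edgeR test called 0 of 10, where 0.0735% of all tested genes were called. An unadjusted p under 0.05 was found for 8 of 10, where 17.5% of all tested genes had one. These were all but Igfbp3 and Insr, and Igf1r among them was lower in cKO. DESeq2 called 5 of 10 (Igf1, Igf2, Igfbp2, Igfbp4 and Igfbp5, all higher in cKO), beside 3.61% of all genes. The differences were 1.71 ± 0.46 for Igf2, 1.72 ± 0.54 for Igfbp2, 1.42 ± 0.36 for Igf1 and 1.08 ± 0.31 for Igfbp5 on the log2 scale, with adjusted p (edgeR) from 0.103 to 0.137. They were 0.72 ± 0.28 for Igfbp6, 0.47 ± 0.18 for Igfbp7, 0.36 ± 0.11 for Igfbp4 and 0.17 ± 0.13 for Igfbp3, and the receptors lay at -0.18 ± 0.07 (Igf1r) and -0.06 ± 0.06 (Insr), with adjusted p from 0.133 to 0.686. The median over the 10 was 0.59, against -0.013 over all tested genes, and no member had ranges that did not overlap, where 1.52% of all tested genes did.

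The contralateral differences moved with markers of other cell types and with single mice. All 10 fibroblast markers had a higher mean in cKO than in control contralateral libraries, with a median log2 difference of 0.89. The edgeR test called 0 of them, beside 0.0735% of all tested genes, and 9 had an unadjusted p under 0.05, beside 17.5%. DESeq2 called 6, all higher, beside 3.61% of all genes. The summed level ranged from 986 to 2403 CPM in cKO and 848 to 1424 CPM in control mice. On the ipsilateral side the same sum ranged from 913 to 1646 CPM in cKO and 984 to 1585 CPM in control mice. Of the 7 meningeal markers 6 were higher contralaterally in cKO (median 1.44, sums of 32.0 to 185 CPM against 20.1 to 61.3 CPM), as were 6 of 7 tendon and bone markers (median 1.30, 60.2 to 258 CPM against 52.0 to 85.1 CPM). No gene of these 3 lists was at 0 throughout a group. Markers of further cell types also had log2 differences above 0 contralaterally: 12 of 12 for macrophages (median 0.28), 7 of 7 for neutrophils (0.79), 5 of 5 for erythroid cells (0.47), 9 of 9 for endothelium (0.14) and 6 of 6 for skeletal muscle (1.34). Other lists were split or mostly lower: 1 of 6 lymphocyte (median -0.38), 4 of 15 sensory neuron and 2 of 4 perineurial markers were above 0. So were 5 of 10 Schwann cell, 6 of 9 mural cell and 3 of 4 satellite glia markers. The macrophage sums were 129 to 353 CPM in cKO and 131 to 241 CPM in control mice, the neutrophil sums 18.8 to 160.2 and 34.3 to 103 CPM, and the erythroid sums 272 to 833 and 311 to 711 CPM. The endothelial sums were 146 to 208 CPM in cKO and 131 to 173 CPM in control mice. The muscle sum was 1691 CPM in the contralateral library of H100, and at most 638 CPM in every other library. The part of these cell types in the differences was not tested. For Igf1 and Igf2 the contralateral libraries of H64, H95 and H100 were the highest of all, so leaving them out was bound to lower those differences. Without them, which left 2 cKO contralateral libraries, the differences were 0.12 for Igf1, 0.49 for Igf2, -0.16 for Igfbp2 and 0.18 for Igfbp5. With the fibroblast score as a covariate they were 0.10, 0.10, 0.20 and -0.02. In the same 2 alternatives Igfbp4 had 0.15 and 0.03, Igfbp6 -0.04 and -0.25, and Igfbp7 -0.10 and -0.17. In the other direction, leaving out H99 brought 7 of 10 members past the threshold (all but Insr, Igfbp3 and Igfbp6) together with 11.7% of all genes. Of these members 6 were higher in cKO and Igf1r was lower. Leaving out H61 brought 1, Igf1, with 0.623% of all genes.

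**Figure D3:**
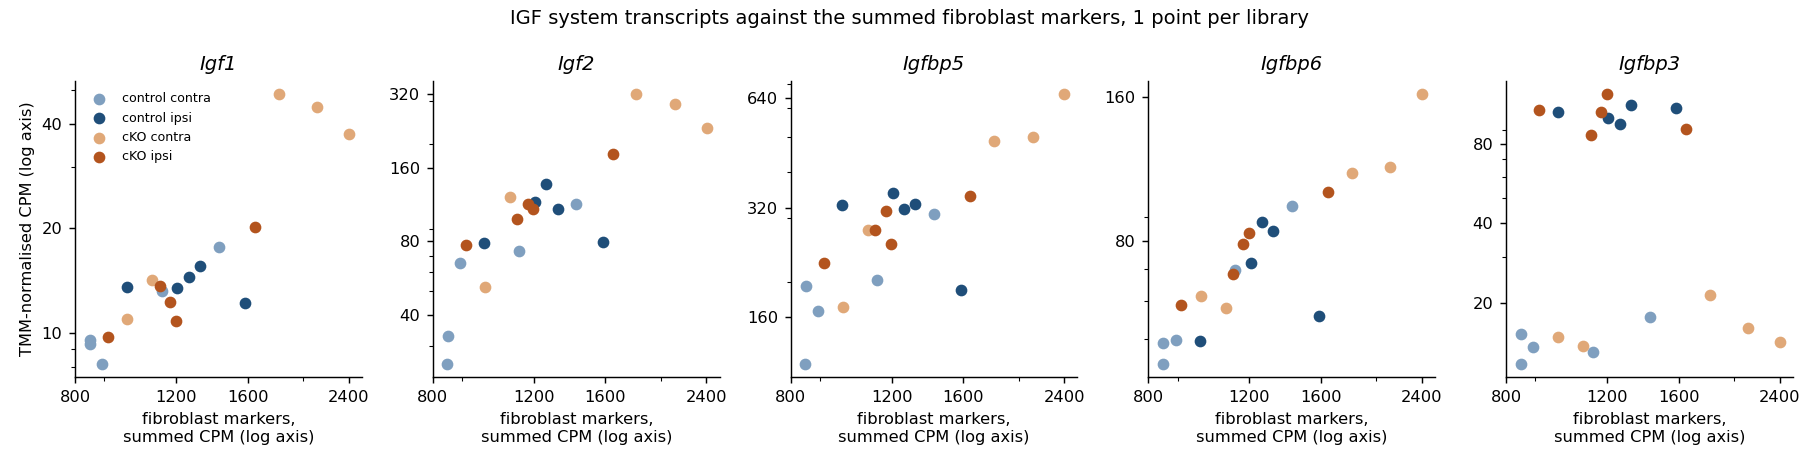
CPM of 5 of the genes (vertical log axes) against the summed CPM of 10 fibroblast markers (horizontal log axes), 1 point per library. Igf1, Igf2, Igfbp5 and Igfbp6 climb with the fibroblast sum, with 3 cKO contralateral libraries at the upper right, while Igfbp3 separates by side. Those 3 have sums of 1812 to 2403 CPM, where no ipsilateral library lies, so the sides cannot be compared there.

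Over the 20 libraries the log2 CPM of 6 members had a Pearson r above 0.75 with the fibroblast score: Igf2 at 0.94, Igfbp6, Igfbp5 and Igf1 at 0.92, 0.92 and 0.91, Igfbp7 at 0.83 and Igfbp4 at 0.78. For Igfbp7 the perineurial score gave a higher value (0.90), for Igfbp4 the endothelial score (0.80), and Igfbp2 had 0.70 with the fibroblast score and 0.90 with the meningeal score. The receptors ran the other way, with -0.54 for Igf1r and -0.42 for Insr. These are descriptions of libraries that share genotype, side and mouse, and no fibroblast marker is a member.

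On the ipsilateral side no difference between the genotypes was detected. None of the 10 was called, where 0.007% of all tested genes were, and 0 of 10 had an unadjusted p under 0.05 (edgeR), where 2.36% of all genes did. DESeq2 and limma called 0 as well. The log2 differences were from -0.09 ± 0.31 for Igfbp5 to 0.46 ± 0.53 for Igfbp2, with 5 higher and 5 lower in cKO. For Igfbp3 the difference was -0.03 ± 0.12, at 104 ± 7.03 CPM in control and 102 ± 14.5 CPM in cKO mice. For the more variable members the standard errors of 0.28 to 0.53 leave room for differences of such a size that 5 mice a group would not show.

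The interaction of genotype and injury called 0 of 10 members, with a background of 0% of all tested genes, and 4 of 10 (Igf1, Igf2, Igfbp4 and Igfbp5) had an unadjusted p under 0.05, where 9.8% of all genes did. Limma called 0 of 10, and DESeq2 called 0 of the 8 for which it gave an adjusted p, with none given for Igf1 and Igfbp2. The log2 values were -1.56 ± 0.64 for Igf2, -1.25 ± 0.75 for Igfbp2, -1.17 ± 0.44 for Igfbp5, -0.56 ± 0.40 for Igfbp6 and -0.52 ± 0.26 for Igfbp7, with adjusted p from 0.485 to 0.641. Adjusted for the fibroblast score, the interaction was -0.22 for Igf1, -0.02 for Igf2, -0.11 for Igfbp4, -0.12 for Igfbp5 and 0.17 for Igfbp2. Without the 3 libraries high in fibroblast markers the values were -0.18, -0.34, -0.22, -0.28 and 0.62 in that order. These contrasts use the same cKO contralateral libraries as the comparison of the genotypes on that side.

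The genes most like each member were ranked by the Pearson r of log2 CPM over 20 libraries among 13112 genes whose mean was 5 CPM or more. Those nearest to Igfbp3 were Stmn4 (a stathmin, r 0.996), Tes (0.996) and Camk1 (0.994), and after removal of the group means r was still 0.810, 0.785 and 0.721. Nearest to Igf1 were Ptgis, the prostacyclin synthase (0.972), Cdon (0.965) and Loxl1, a lysyl oxidase (0.960). Igf2 was followed, after Gm49394, by Gm33148 (0.997) and 1500015O10Rik (0.986). Igfbp2 had Slc13a3 (0.986) and Slc9a2 (0.973), and Igfbp6 had Islr (0.985), Ltbp4 (0.972) and Smoc2 (0.968). Igfbp5 had Sfrp4 (0.959), H19 (0.957) and Pi16 (0.946), and Igfbp7 had Lima1 (0.965), Ifitm2 (0.959) and Gm45717 (0.955). The highest values were lower for Igfbp4, with Lrp5 (0.891), Serpinf1 (0.889) and Stab1 (0.877), and for the receptors. Igf1r had Atg2b (0.925), Tbc1d5 (0.897) and Scn7a (0.887), and Insr had Nfat5 (0.902), Kmt2d (0.872) and Dync1h1 (0.866). Pi16 is also 1 of the 10 fibroblast markers.

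Other genes of the system changed with injury in both genotypes, and none was called by edgeR between the genotypes. Of 19 further ligands, carriers, receptors and regulators, 15 were tested, and 6 rose and 2 fell in control mice, while 5 rose and 3 fell in cKO mice. Of all tested genes 13.8% rose and 16% fell in control mice, and 16.2% rose and 15.1% fell in cKO mice. Without the 3 libraries high in fibroblast markers 5 rose and 1 fell in cKO mice. The insulin genes Ins1 and Ins2, the carrier gene Igfbp1 and Igf2bp1 were not tested: Ins1 had 0 counts in all 20 libraries, which allows up to 0.0253 to 0.0394 CPM per library for counting error only, and the others had at most 6, 10 and 14 counts in any library. Of 31 genes of insulin and IGF signalling inside the cell 30 were tested (Irs4 was not), and 7 rose and 9 fell in control mice, while 9 rose and 6 fell in cKO mice. The balance in cKO mice turned to 6 that rose and 10 that fell without the 3 libraries high in fibroblast markers, and to 9 and 10 with the mouse as a replicate block. Of the 45 tested genes of these 2 lists edgeR called 0 between genotypes on either side or in the interaction. An unadjusted p under 0.05 was found for 13 contralaterally, 1 ipsilaterally and 7 in the interaction. Of all tested genes 17.5%, 2.36% and 9.8% had one in these comparisons. DESeq2, which gave no adjusted p for some of them contralaterally and in the interaction, called 3, on the contralateral side (H19 and Htra3 higher, Pik3cd lower in cKO), and limma 0. On that side DESeq2 called 3.61% of all genes.

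Among the substrates of the receptors, Irs2, which links them to PI3 kinase, stood at 71.2 ± 3.74 CPM contralaterally and 148 ± 6.45 CPM ipsilaterally in controls, and at 64.5 ± 6.54 and 149.5 ± 12.6 CPM in cKO mice. That was a rise of 1.06 ± 0.06 and 1.21 ± 0.06 on the log2 scale (adjusted p = 5.52e-11 and 5.07e-12, edgeR). Pappa, a protease that cleaves IGFBP4, rose from 13.1 ± 1.30 to 23.9 ± 2.99 CPM in control mice (0.87 ± 0.09, adjusted p = 2.71e-07) and by 0.92 ± 0.09 in cKO mice. Its relative Pappa2, which cleaves IGFBP3 and IGFBP5, rose by 0.58 ± 0.11 and 0.75 ± 0.11. Other proteases of the list, the serine protease genes Htra1 and Htra3, chosen after their values were seen, were not called higher: Htra1 had 0.02 ± 0.04 in control mice (adjusted p = 0.799) and fell by 0.15 ± 0.04 in cKO mice (adjusted p = 0.0126, called in 16 of 21 alternatives), and Htra3 had 0.45 ± 0.42 (adjusted p = 0.479) and -0.85 ± 0.42 (adjusted p = 0.138). Socs2, a feedback inhibitor of growth hormone signalling, rose by 0.52 ± 0.06 and 0.70 ± 0.06, and Igf2bp2, an RNA-binding protein of the Igf2 transcript, by 0.82 ± 0.12 and 0.96 ± 0.12.

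Eif4ebp1, a repressor of translation under mTOR control, rose by 0.93 ± 0.10 in controls and by 0.72 ± 0.10 in the cKO group, and Pik3cb, a catalytic subunit of PI3 kinase, by 0.43 ± 0.05 and 0.52 ± 0.05. The forkhead factor gene Foxo6 fell by 0.82 ± 0.11 in both, with contralateral levels of 4.81 ± 0.471 and 5.31 ± 0.853 CPM and ipsilateral levels of 2.71 ± 0.172 and 3.02 ± 0.424 CPM in controls and cKO mice. Grb10, an adaptor that restrains both receptors, rose by 0.40 ± 0.08 in control mice and by 0.20 ± 0.08 in cKO mice (adjusted p = 0.0443, called in 7 of 21 alternatives). Some changes were in genes with group means under 1 CPM. Igfbpl1, related to the binding proteins, rose by 1.27 ± 0.37 and 2.00 ± 0.38 from means of 0.134 and 0.0982 CPM, and Igfals, the acid-labile subunit that holds IGFBP3 in serum, fell by 0.45 ± 0.14 and 0.45 ± 0.14 from 0.902 and 0.911 CPM. Both Igfals calls held in 16 of 20 alternatives, with adjusted p up to 0.0914 in control and 0.137 in cKO mice, and the Igfbpl1 call in control mice held in 18 of 20, with adjusted p up to 0.0761. Stc2, a stanniocalcin that inhibits pappalysin, rose in control mice by 1.24 ± 0.29 from 0.215 ± 0.0881 CPM (adjusted p = 0.00225), while in cKO mice the value was 0.23 ± 0.27 (adjusted p = 0.564). The difference of the Stc2 responses was -1.004 ± 0.395 and did not pass the test (interaction, adjusted p = 0.485).

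**Figure D4:**
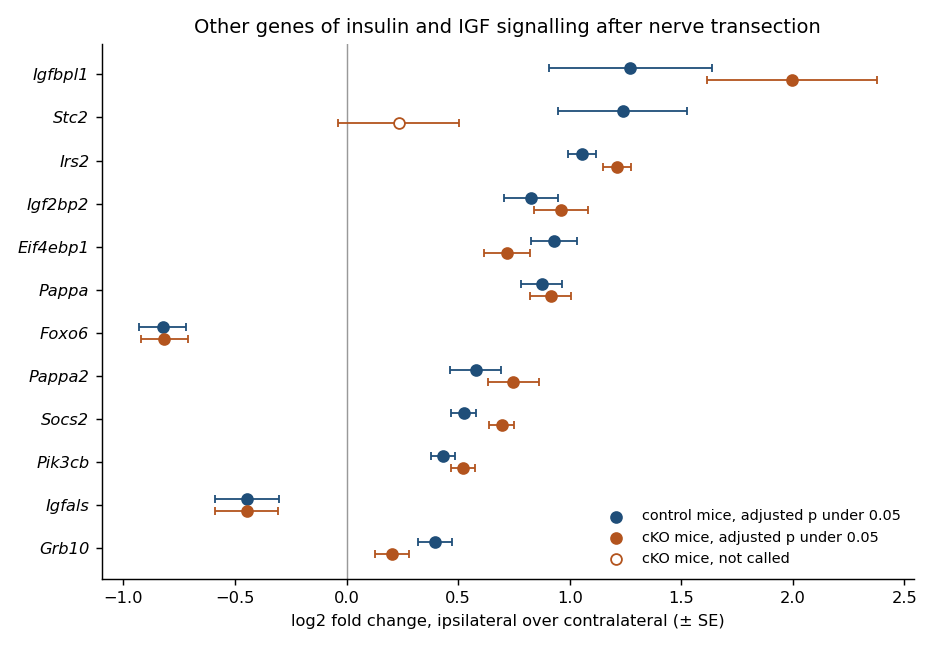
Log2 fold change, ipsilateral over contralateral (horizontal axis, ± SE), of the 12 other genes of insulin and IGF signalling with the largest changes among those called, in control and cKO mice; filled points have an adjusted p under 0.05. Irs2 lies at 1.06 and 1.21, Foxo6 at -0.82 in both genotypes, and among these 12 only Stc2 has an open point, in cKO mice.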

How the data were processed

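mRNA was sequenced from 20 libraries (10 mice, 4 groups of 5), as stranded libraries read as paired 150 bp reads, per the labels' protocols. The submitters' processing notes name HISAT2 and Picard and the builds mm10 and mm39, and the counting program, annotation and strand setting are not given in the sources used here. The authors deposited whole-number exonic counts per gene, not normalized, and FPKM, whose length per gene equalled the whole gene span, introns included, for all 10 members, so FPKM served only for comparisons within a gene. Groups were taken from the labels. The treatment field speaks of a spinal cord injury, but the protocol describes sciatic transection, which was taken as correct. One sample title shortens its mouse number, and the library name was used. Titles of the control libraries read Wildtype, while the genotype given above is Ahr f/f or Ahr f/+.

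The tests used edgeR 4.0.16 under R 4.3.3 (filterByExpr, minimum count 10 and total 15, TMM, robust quasi-likelihood F-test), with the 20 libraries in 1 model that gives each group its own mean. P-values were adjusted by Benjamini-Hochberg over 28564 genes in each of 5 comparisons, and called means an adjusted p under 0.05. For edgeR, SE stands for the absolute log2 fold change divided by the square root of the F statistic. Symbols and exon lengths came from GENCODE M21 (GRCm38). The score of a marker list averages the log2 CPM (prior count 2) of its genes, and its sum adds their CPM. The scripts were tested on simulated counts. Alternatives were DESeq2 1.42.0, RLE factors, no filter, a mean of at least 1 CPM, limma 3.58.1 on FPKM in log2 units (pseudocounts 1 and 0.1), mouse as a replicate block, only the libraries compared, the range of mouse numbers or the fibroblast score as covariate, and leaving out each mouse. Leaving out the 3 libraries highest in fibroblast markers was chosen after seeing the data, and it left 2 cKO contralateral libraries. Pathway genes were named if called in at least 1 comparison, up to 12 by size of change (H19, Htra1, Htra3 and Pik3cd were added after their values were seen), and 3 most similar genes were named per member, of which 1 is not reported here. Members and lists were chosen with earlier results of these data known.

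The 2 libraries of a mouse come from the same animal. Their deviations from the group means correlated across genes with a median r of 0.186 (-0.0546 to 0.361), over 0.1 in 7 of 10 mice. Depth was 76.2 to 118.5 M counts per library, and replicates differed by 5.30 to 58.6 times counting error (chi-square per degree of freedom, 40 pairs), so the spread between mice set the precision. Without molecular identifiers, limits computed from counts hold for counting error alone.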

Additional observations from a re-analysis of the deposited data

Results flagged for a closer look

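In 40 groups of 5 libraries, Dixon's ratio (the gap of the highest or lowest library to its neighbour, divided by the range of the group) was above the critical value of 0.71 in 4, where chance would give about 1 in 20 groups, or 2. The ratio was 0.791 for Insr in control contralateral libraries, where H97 was highest at 36.2 CPM against 30.4 to 31.6 CPM in the others. It was 0.788 for Igfbp5 in control ipsilateral libraries, where H96 was lowest at 189.8 CPM against 317 to 352 CPM. In cKO ipsilateral libraries H100 was highest for both Igfbp7 (ratio 0.725, 95.97 CPM against 64.9 to 73.5 CPM) and Igfbp4 (ratio 0.714, 187 CPM against 136 to 150.4 CPM), and the same library had the highest fibroblast sum of its group, 1646 CPM.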

How the results depend on the processing

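The rise of Igfbp3 was called in both genotypes under every alternative that was run. Of 1020 values of single members under alternatives, 940 kept their direction and side of the threshold. With the sign kept, 20 passed it newly and 11 no longer passed it. The other 49 changed sign, among them 1 called value, Igf1 in cKO mice, which also lost its call. Igfbp7 in cKO mice changed sign and newly passed the threshold with the fibroblast covariate and without the 3 libraries highest in fibroblast markers. The cause of these changes was not tested. Depth limited none of the 10 members, each with at least 656 counts in every library. RLE factors and a covariate for the range of mouse numbers changed no call of a member. The replicate block gave adjusted p values of 0.0729 for Igfbp4 (0.34) and 0.0353 for Igfbp7 (0.47) in control mice and changed no other call among the members and the 12 named pathway genes.

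Members called in control mice fell from 2 to 1 with no filter, limma on FPKM (pseudocount 1) or the fibroblast covariate, rose to 3 with DESeq2, with only the libraries compared or without the 3 libraries highest in fibroblast markers (Igfbp7 in addition), and ran from 1 to 3 without single mice. In cKO mice they fell from 2 to 1 with only the libraries compared (Igf1 lost), rose to 3 with DESeq2 (Igfbp2 in addition) and ran from 1 to 3 without single mice. On the contralateral side 21 genes were called between genotypes, against 1030 with DESeq2, 50 with no filter, 45 at a mean of at least 1 CPM, 6 and 7 with limma (pseudocounts 1 and 0.1), 2 with only the libraries compared, with the fibroblast covariate or without the 3 libraries highest in fibroblast markers, and 5 to 3332 without single mice (highest without H99, and 178 without H61). Members called there were 0, against 5 with DESeq2 and 0 to 7 without single mice. Interaction calls were 0, against 11 with DESeq2 and 0 to 43 without single mice, the latter without H99.

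The fibroblast covariate changed the sign in control mice of Igf1 (-0.21) and Igfbp6 (-0.20), in cKO mice of Igf2 (0.17), Igf1r (-0.019), Igfbp4 (0.085), Igfbp5 (0.11), Igfbp6 (0.19) and Igfbp7 (0.29, adjusted p = 0.0256), contralaterally of Insr (0.041), Igfbp5 (-0.016), Igfbp6 (-0.25) and Igfbp7 (-0.17), and in the interaction of Igfbp2 (0.17), Igfbp6 (0.39) and Igfbp7 (0.10). Leaving out the 3 libraries highest in fibroblast markers did so in cKO mice for Igf1 (0.091), Igf2 (0.42), Igf1r (-0.11), Igfbp2 (0.58), Igfbp4 (0.12), Igfbp5 (0.34), Igfbp6 (0.39) and Igfbp7 (0.51, adjusted p = 0.0438), contralaterally for Insr (0.057), Igfbp2 (-0.16), Igfbp6 (-0.038) and Igfbp7 (-0.10), and in the interaction for Insr (-0.017), Igfbp2 (0.62), Igfbp6 (0.20) and Igfbp7 (0.044). Without single mice, sign changes were in ranges of -0.19 to 0.20 for Igfbp2 in control mice, -0.052 to 0.084 for Igf1r, -0.22 to 0.053 for Igfbp4 and -0.16 to 0.067 for Igfbp7 in cKO mice, and ipsilaterally -0.26 to 0.034 for Igf1, -0.067 to 0.27 for Igf2, -0.046 to 0.032 for Igf1r, -0.0050 to 0.072 for Insr and -0.10 to 0.029 for Igfbp3.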
